A study of Mus musculus with 6 samples.

Results

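Axon guidance genes encode secreted and membrane-bound ligands and the receptors that read them. The genes described here are the semaphorins, ephrins, Slits and netrins, which are ligands, and the plexins, Eph receptors, Robos and Unc5 receptors. They were taken by a rule on gene symbols, set with earlier results of these data known. The rule took 65 of the 35077 gene names on the arrays, 35 of them ligands and 30 receptors. Of these 65 genes, 55 were tested, since 1 of their probes was well above background in every array of the outer or of the intermediate group, and 18003 genes were tested in all. RNA came from the outer and the intermediate interzone of mice in utero at 15.5 days gestation, 3 samples a group, where each replicate stands for 1 embryo. The interzone is the band of cells that lies between the cartilage elements of a limb where a joint will form. The strain, the joint and the way the layers were separated are not given in the sources used here, and no group carried a mutation or a treatment according to the labels.

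Guidance cues were first described as signals that attract or repel growing axons, and most of them also act on blood vessels, bone and connective tissue. Semaphorins signal through plexins, and most secreted class 3 semaphorins need a neuropilin as the co-receptor that binds them. Ephrins are tied to the cell surface, bind Eph receptor tyrosine kinases on a neighbouring cell and can signal back into the cell that carries them. Slits bind Robo receptors and usually repel. Netrins attract through Dcc and neogenin and repel through Unc5 receptors.

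The values are the log2 processed signal minus its 75th percentile on that array, called levels below, and differences are outer minus intermediate. The 75th percentile of the processed signal lay between 47.4 and 290 on the outer arrays and between 144 and 344 on the intermediate arrays. Outer replicate 1 was the dimmest array, with 35.6% of its spots well above background, while the other 5 arrays had between 45.1% and 53.4%. The joint marker Gdf5 was well above background throughout, at 4.69, 6.81 and 5.57 in outer interzone and 5.25, 6.72 and 5.12 in intermediate interzone. Of 15 cartilage markers, 13 were higher in the outer interzone, with a median difference of 3.19. Of the 15, 11 were well above background on all 6 arrays, and the rest were tested through the outer arrays alone. A level is a property of 1 probe, so levels are compared between groups and not between genes. In such bulk samples, fewer cells of a type and less RNA per cell cannot be told apart.

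Of the 55 tested guidance genes, 5 passed the test at adjusted p 0.05, and 3 of them were higher and 2 lower in the outer interzone. The netrin Ntn3, the Eph receptor Epha4 and the semaphorin Sema5a were higher, by 2.81-fold, 2.51-fold and 2.18-fold. The Eph receptor Epha3 and the plexin Plxnd1 were lower, by 2.22-fold and 3.61-fold. These 5 are 9.09% of the tested guidance genes, where 4.05% of all tested genes passed, 1.57% of them higher and 2.48% lower in the outer interzone. The 2 groups did not overlap for 20 of the 55 genes, or 36.4%, where 27.1% of all tested genes had groups that did not overlap. The median difference was 0.11 over the 55 genes and 0.10 over all genes tested.

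With the replicate number as a block, 18 of the 55 guidance genes passed, 11 higher and 7 lower in the outer interzone, where 9.09% of all genes passed, 4.64% higher and 4.44% lower. This block treats same-numbered arrays as pairs, but the labels do not say that a number marks 1 embryo in both groups. Replicate 1 was also the dimmest array of each group. Passes with the replicate block, here and below, therefore rest on a pairing that is not known. The 13 genes added by the block were Ntn1, Robo2, Unc5c, Plxna2, Plxnb1, Sema3a, Sema3d and Efnb1, all higher, and Slit2, Unc5b, Sema3g, Sema6b and Sema7a, all lower. With the slide as a block 8 guidance genes passed, 4 higher and 4 lower, where 6.75% of all genes did, 2.67% higher and 4.08% lower. Both this fit and a fit within slide 1 set outer replicate 1 alone against the 3 intermediate arrays, and in the second of these the p-values take their spread from the intermediate arrays only. Within slide 1, 9 passed, 3 higher and 6 lower, where 7.3% of all genes did, 2.88% higher and 4.42% lower. Of the 55 tested genes, 46 were well above background on all 6 arrays. The other 9 were so on all 3 intermediate arrays but on fewer than 3 outer arrays, and these were Ephb1, Ntn4, Sema3g, Sema4b, Sema4f, Sema4g, Sema5b, Sema6b and Slit1. None of the 55 entered the test through the outer arrays alone. A filter of this kind passes a gene through the group where it is bright, so the counts say nothing on how often such genes differ. Scaling the arrays to their medians in place of the 75th percentile moved the median difference of all genes to -0.29 and that of the guidance genes to -0.28, so each difference is read relative to that shift.

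**Figure D1:**
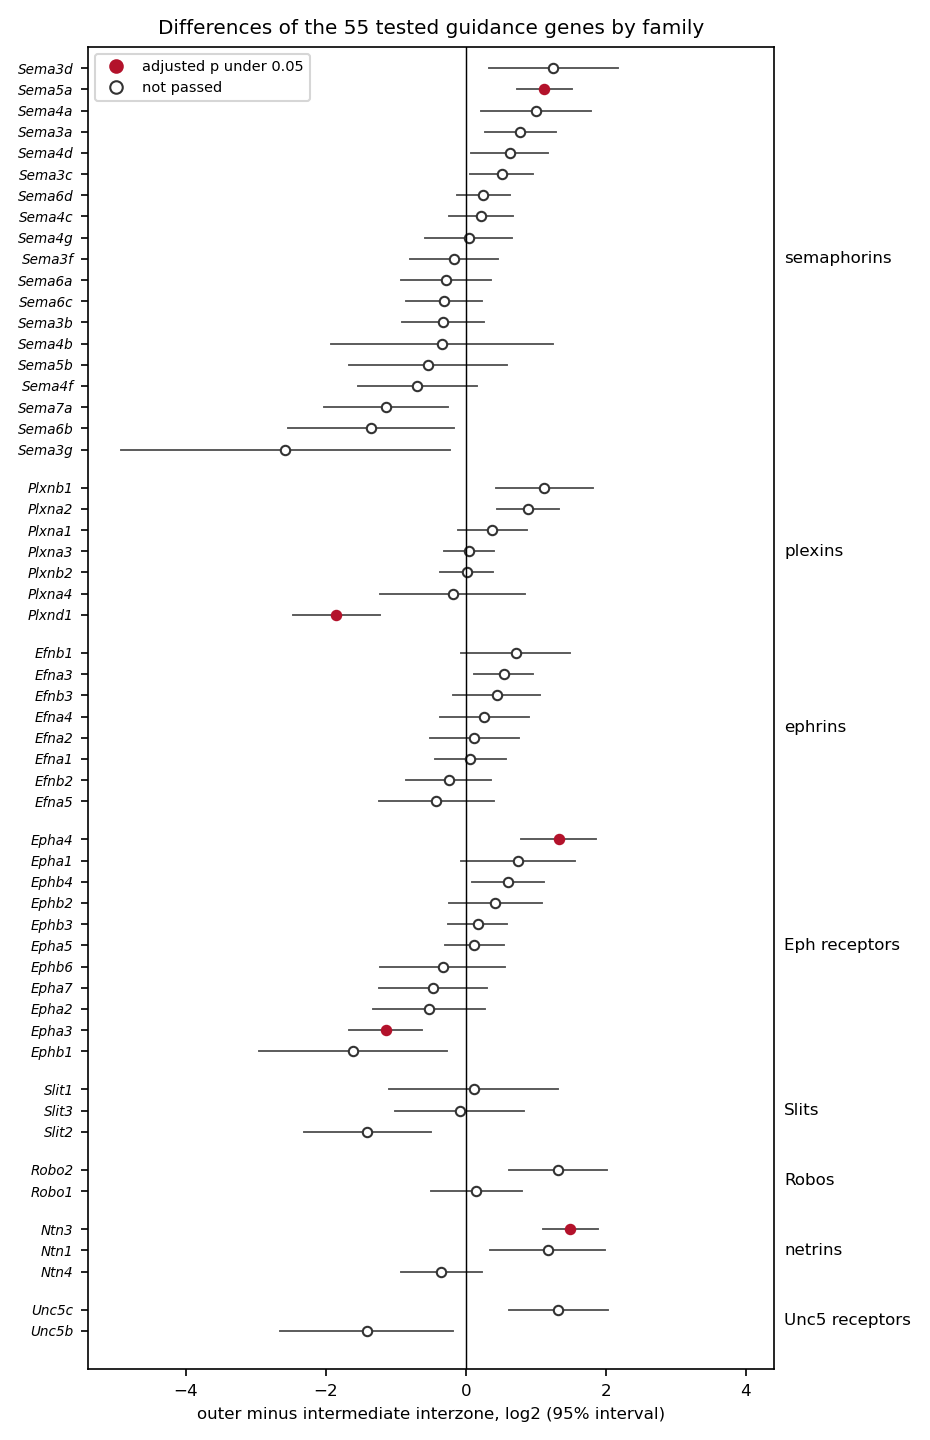
Difference between outer and intermediate interzone in log2 units (x axis) for the 55 tested guidance genes, grouped by family and ordered by size within it, with 95% intervals from limma as lines. Filled points are the 5 genes with adjusted p under 0.05, which run from -1.85 for Plxnd1 to 1.49 for Ntn3.

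The promoters of the 5 genes that passed are shown as the sequences nearest to their transcription starts, in the order of their differences. Each runs 5′ to 3′ from 250 bases before to 50 bases after the start of a RefSeq transcript in build GRCm38.p6, and capitals mark the GC box GGGCGG on either strand. The 3 genes that were higher were Ntn3 at chr17:24209338-24209637 on the minus strand, Epha4 at chr1:77515039-77515338 on the minus strand and Sema5a at chr15:32244563-32244862 on the plus strand.
Ntn3: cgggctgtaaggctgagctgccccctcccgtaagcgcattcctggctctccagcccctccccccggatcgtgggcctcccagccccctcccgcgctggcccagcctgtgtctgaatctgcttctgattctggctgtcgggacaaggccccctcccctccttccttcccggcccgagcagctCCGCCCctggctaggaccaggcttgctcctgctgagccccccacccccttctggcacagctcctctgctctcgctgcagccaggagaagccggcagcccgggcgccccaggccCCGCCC
Epha4: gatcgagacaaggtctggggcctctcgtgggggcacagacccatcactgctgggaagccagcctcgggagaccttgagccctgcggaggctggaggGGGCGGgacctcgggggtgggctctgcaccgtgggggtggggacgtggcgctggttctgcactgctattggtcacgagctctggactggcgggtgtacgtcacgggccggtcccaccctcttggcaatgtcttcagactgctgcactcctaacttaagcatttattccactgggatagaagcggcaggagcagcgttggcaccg
Sema5a: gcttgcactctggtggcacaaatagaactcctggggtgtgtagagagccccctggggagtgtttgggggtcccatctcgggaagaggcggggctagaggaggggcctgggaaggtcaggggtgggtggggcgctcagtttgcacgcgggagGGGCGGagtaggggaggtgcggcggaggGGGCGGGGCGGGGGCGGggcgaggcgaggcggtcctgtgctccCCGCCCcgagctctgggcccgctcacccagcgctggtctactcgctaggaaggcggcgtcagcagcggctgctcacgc
The 2 genes that were lower were Epha3 at chr16:63864126-63864425 and Plxnd1 at chr6:115994956-115995255, both on the minus strand.
Epha3: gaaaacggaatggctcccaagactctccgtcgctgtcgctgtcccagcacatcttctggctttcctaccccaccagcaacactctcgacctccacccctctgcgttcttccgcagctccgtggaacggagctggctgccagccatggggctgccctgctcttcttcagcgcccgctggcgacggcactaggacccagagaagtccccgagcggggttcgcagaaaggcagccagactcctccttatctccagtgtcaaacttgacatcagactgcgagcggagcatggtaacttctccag
Plxnd1: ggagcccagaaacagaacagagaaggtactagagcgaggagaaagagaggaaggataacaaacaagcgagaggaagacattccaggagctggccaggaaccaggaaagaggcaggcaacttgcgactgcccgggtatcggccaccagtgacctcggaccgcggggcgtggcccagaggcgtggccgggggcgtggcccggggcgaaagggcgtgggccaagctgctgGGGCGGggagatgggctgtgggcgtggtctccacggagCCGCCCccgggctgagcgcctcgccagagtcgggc

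The promoters held 71.3% G and C for Ntn3 and for Sema5a, 67.0% for Plxnd1, 64.0% for Epha4 and 60.7% for Epha3. The median was 60.3% over 13409 promoters of tested genes and 64.3% over the promoters of guidance genes, so Epha4 and Epha3 lay below the latter. The 5 promoters held 16 to 23 CpG dinucleotides each, with a median of 20 over the promoters of tested genes and 19.5 over those of guidance genes. The GC box was found 5 times for Sema5a, where some copies overlap, 2 times each for Ntn3 and Plxnd1, 1 time for Epha4 and not for Epha3. It was present in 51 of the 72 promoters of 56 guidance genes found in the RefSeq table, or 70.8%, and in 60.9% of the promoters of tested genes. None of the 5 held the letters TATAAA, known as the TATA box, found in 7.58% of the promoters of tested genes. None held CACGTG, an E-box, found in 9.72%, CCGGAAGT, an ETS site, found in 7.38%, ACAATGG, a Sox site, found in 2.09%, or GACCACCCA, a Gli site, found in 0.201%, with both strands searched each time. A match is a run of letters and not a measured binding site.

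Ntn3, a secreted netrin that binds Dcc, neogenin and Unc5 receptors, had the highest difference of the 55 genes. Its probe lies at chr17:24341753-24341812 on the minus strand of build mm9, the build of all probe positions here. Ntn3 stood at 2.20, 2.24 and 2.15 in outer interzone, for replicates 1, 2 and 3, against 0.72, 0.88 and 0.52 in intermediate interzone. The lowest outer array was 1.28 above the highest intermediate array. Ntn3 averaged 2.20 ± 0.04 in outer and 0.70 ± 0.18 in intermediate interzone (SD, n = 3 each), and the difference was 1.49 (SE 0.17, 95% interval 1.10 to 1.89, adjusted p = 0.0106 by limma). Outer replicate 1 set against the intermediate arrays of its slide also gave Ntn3 a difference of 1.49. The adjusted p was 0.0553 without outer replicate 3 and 0.0574 without intermediate replicate 3. It was 0.0678 with normexp background correction and the 75th percentile.

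Ntn1, the founding netrin, was at -0.05, 1.09 and 1.20 in outer interzone and at -0.64, -0.38 and -0.24 in intermediate interzone. The groups did not overlap, but the lowest outer array lay near the intermediate ones, and the difference of 1.17 (SE 0.35, adjusted p = 0.124) did not pass. It passed with the replicate block, at adjusted p 0.0480, and on the arrays of slide 1 it was 0.36. The other Ntn1 probe, dimmer and 17 kb away in the same gene, gave a difference of 1.41 (adjusted p = 0.0477 over all tested probes). Ntn4, a netrin of basement membranes, was well above background on 2 of 3 outer arrays, with a difference of -0.35 (SE 0.25, adjusted p = 0.451). Ntn5 was well above background on 1 intermediate array and was not tested.

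The Unc5 receptors had differences of both signs. Unc5c, a repulsive netrin receptor, was at -0.69, -0.40 and -0.90 in outer interzone and at -2.22, -1.36 and -2.38 in intermediate interzone. Its groups did not overlap, and the difference of 1.32 (SE 0.30, adjusted p = 0.0624) missed the threshold and passed with the replicate block (adjusted p = 0.0322). The other Unc5c probe gave 1.26. Unc5b, a netrin receptor known from blood vessels, was at -0.50, 1.07 and 0.52 in outer interzone and at 0.88, 1.94 and 2.52 in intermediate interzone. These groups overlapped, and the difference of -1.42 (SE 0.52, adjusted p = 0.186) did not pass. Every outer array was below the intermediate array of the same number. Unc5b passed with the replicate block (adjusted p = 0.0421), which assumes a pairing that the labels do not give. Unc5a was well above background on 2 intermediate arrays and Unc5d on none, so neither was tested.

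Dcc, the attractive netrin receptor, belongs to a list of co-receptors rather than to the families above. Dcc was at 4.82, 3.76 and 4.58 in outer interzone and at 3.83, 3.06 and 3.38 in intermediate interzone, with a difference of 0.96 (SE 0.33, adjusted p = 0.163). Its groups overlapped by 0.07, and it did not pass. Dcc passed with the replicate block (adjusted p = 0.0380) and without outer replicate 2 (1.28, adjusted p = 0.0498). Neo1, which encodes neogenin, had a difference of 0.28 (SE 0.19, adjusted p = 0.432).

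Slit2, a secreted ligand of Robo1 and Robo2, was at -0.55, 0.55 and -0.71 in outer interzone and at 0.75, 1.59 and 1.18 in intermediate interzone. All outer arrays were below all intermediate arrays, and the difference was -1.41 (SE 0.38, 95% interval -2.31 to -0.51, adjusted p = 0.0990). It did not pass in the main comparison and passed with the replicate block (adjusted p = 0.0353). Slit1 and Slit3 had differences of 0.11 (95% interval -1.11 to 1.32) and -0.09 (95% interval -1.01 to 0.84), and their groups overlapped. These intervals leave room for differences in either direction, so the data do not show that Slit1 and Slit3 were alike in the 2 layers. Slit1 was well above background on 2 of 3 outer arrays.

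Robo2, a Slit receptor, was at 0.32, 0.13 and 0.56 in outer interzone and at -1.61, -0.66 and -0.65 in intermediate interzone. The groups did not overlap, and the difference of 1.31 (SE 0.30, adjusted p = 0.0611) missed the threshold, while it passed with the replicate block (adjusted p = 0.0472). Another Robo2 probe gave 1.23, with groups that did not overlap either. Robo1, whose probe lies 849 kb from that of Robo2 on chromosome 16, was at 1.54, 2.26 and 2.32 in outer interzone and at 1.53, 2.16 and 1.98 in intermediate interzone. Its groups overlapped and the difference was 0.15 (95% interval -0.51 to 0.81, adjusted p = 0.793). Robo3, known from commissural axons, was above background on 0 of 6 arrays.

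**Figure D2:**
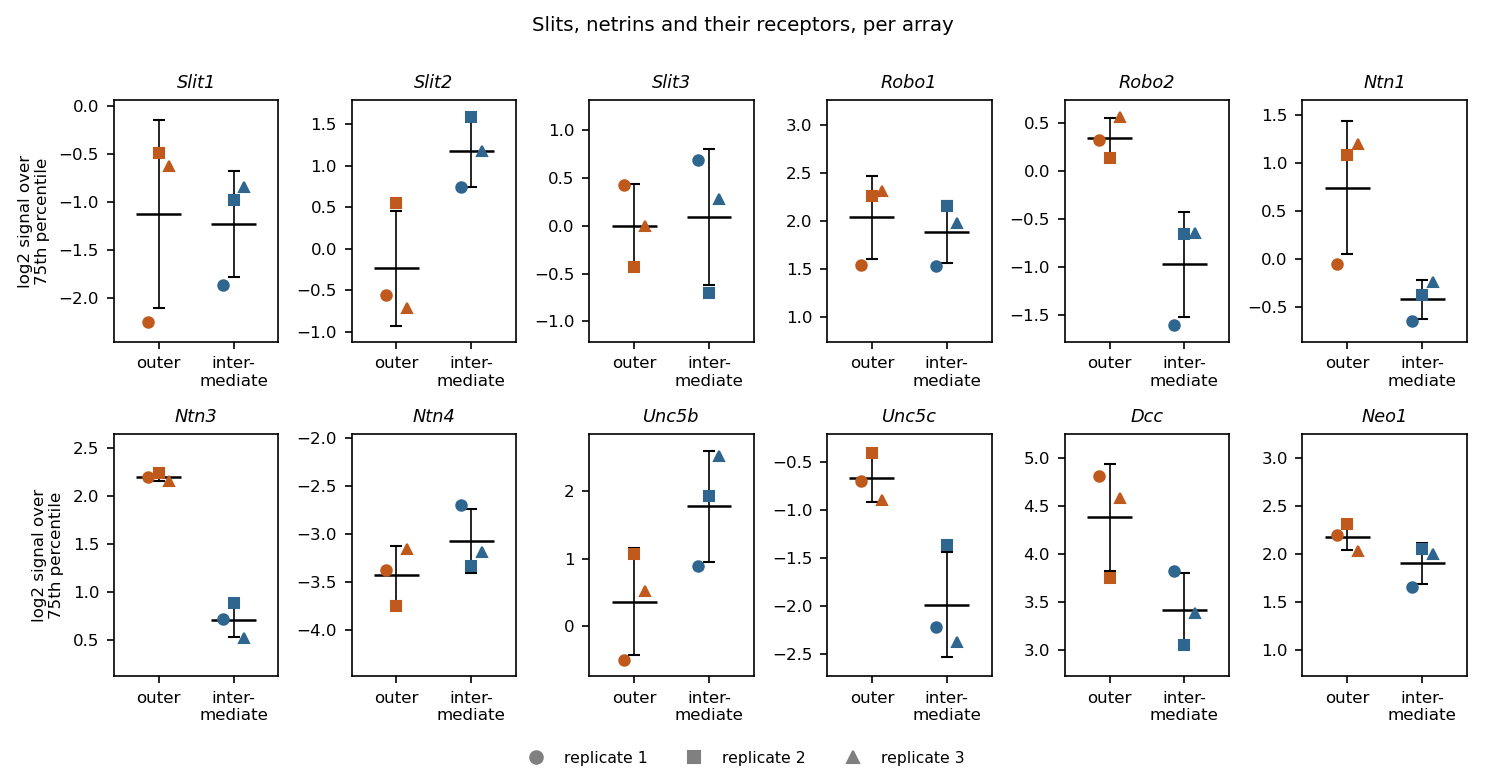
Levels of the tested Slits, Robos, netrins and Unc5 receptors and of the netrin receptors Dcc and Neo1 on each of the 6 arrays (y axis, log2 signal over the array's 75th percentile, with a range of its own in each panel), outer left of intermediate interzone. Lines are means with SD over 3 arrays, and marker shapes are replicate numbers. Slit2 is lower, and Ntn1, Ntn3, Robo2 and Unc5c are higher, on every outer array than on every intermediate array, and of these Ntn3 passed the test.

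Semaphorins were the largest family, with 20 genes, of which 19 were tested and 1 passed. Sema5a, a membrane-spanning semaphorin with thrombospondin repeats, was at 3.00, 3.15 and 3.04 in outer interzone and at 1.77, 2.04 and 2.02 in intermediate interzone. Its outer values span 0.15 and all lie above the intermediate values. Sema5a, measured at chr15:32626025-32626084 on the plus strand, averaged 3.06 ± 0.07 in outer and 1.94 ± 0.15 in intermediate interzone (SD, n = 3 each). The difference was 1.12 (SE 0.16, 95% interval 0.73 to 1.51, adjusted p = 0.0193). Sema5a did not pass with arrays scaled to the median (0.73, adjusted p = 0.129) or with the slide as a block (1.06, adjusted p = 0.0538). Nor did it pass with normexp background correction and the 75th percentile (0.79, adjusted p = 0.320). Within slide 1 Sema5a had a difference of 1.06 as well. Its adjusted p was also 0.0771 without outer replicate 3, 0.0762 without intermediate replicate 1 and 0.0874 without intermediate replicate 3. Sema5b, its paralog, had a difference of -0.54 (adjusted p = 0.554) and was well above background on 2 of 3 outer arrays.

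The class 3 semaphorins, which are secreted, had differences of both signs, and none passed. Sema3d, at 2.41, 1.02 and 2.01 in outer and 1.01, 0.20 and 0.47 in intermediate interzone, had groups that did not overlap by a margin of 0.01, and a difference of 1.25 (SE 0.39, adjusted p = 0.133). Sema3a, the classic repellent that binds Nrp1, was at 2.28, 2.46 and 1.94 in outer and at 1.26, 1.72 and 1.38 in intermediate interzone. Its groups were separate, the difference was 0.78 (SE 0.21, adjusted p = 0.102), and its other probe gave 1.05. Sema3c was at 4.71, 4.66 and 4.76 in outer and at 4.49, 3.96 and 4.14 in intermediate interzone, with a difference of 0.51 (adjusted p = 0.190). Sema3d and Sema3a passed with the replicate block, at adjusted p 0.0366 and 0.0469.

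Probes of 4 class 3 semaphorins lie within 4.65 Mb of chromosome 5, between positions 12586981 and 17236040, in the order Sema3d, Sema3a, Sema3e and Sema3c. All 4 differences were positive, but Sema3e was not tested. With probes joined up to 5 Mb apart the guidance genes formed 12 such clusters, of which 7 held differences of both signs, and 60.1% of all tested genes had a positive difference. Sema3e, the class 3 ligand that binds Plxnd1 without a neuropilin, was at -2.89, -2.39 and -1.01 in outer and at -3.71, -3.61 and -2.36 in intermediate interzone. Sema3e was well above background on 2 arrays of each group and was not tested.

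Sema3g, a class 3 semaphorin that binds Nrp2, had a difference of -2.58 (SE 0.99, adjusted p = 0.201), which was -1.50 without outer replicate 1. It was at -4.04, -0.39 and -1.22 in outer and at -0.66, 1.17 and 1.59 in intermediate interzone, and the outer replicate 1 value was not well above background. The groups overlapped, each outer array lay below the intermediate array of the same number, and the replicate block gave an adjusted p of 0.0353. Sema3b and Sema3f, whose probes lie 83 kb apart on chromosome 9, had differences of -0.32 and -0.17 (adjusted p = 0.497 and 0.743).

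Of the membrane-bound semaphorins other than Sema5a, Sema4c had the brightest probe in the family. Sema4c was at 5.11, 5.35 and 5.11 in outer and at 4.78, 5.26 and 4.88 in intermediate interzone, with overlapping groups and a difference of 0.21 (95% interval -0.24 to 0.67, adjusted p = 0.565). Sema4a, known from immune cells and the retina, had a difference of 1.00 and Sema4d, the ligand of Plxnb1, of 0.63, with adjusted p of 0.153 and 0.189 and groups that did not overlap. Sema7a, which is held by a lipid anchor and also acts on integrins, was at -1.10, -0.24 and 0.13 in outer and at 0.27, 0.72 and 1.23 in intermediate interzone. Its groups were separate, with a difference of -1.15 (SE 0.38, adjusted p = 0.149), and it passed with the replicate block (adjusted p = 0.0310). Sema6b, a ligand of A-type plexins, was at -4.06, -2.16 and -2.73 in outer and at -2.19, -1.45 and -1.24 in intermediate interzone. The difference was -1.36 (adjusted p = 0.186), and the groups overlapped by 0.03. Sema6b was well above background on 2 of 3 outer arrays and entered the test through the intermediate arrays alone. It passed with the replicate block (adjusted p = 0.0467). The remaining 6 were Sema4b, Sema4f, Sema4g, Sema6a, Sema6c and Sema6d, with differences between -0.69 and 0.25 and none with an adjusted p below 0.319.

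Plexins are the receptors of semaphorins, and 7 of the 9 were tested. Plxnd1, the receptor of Sema3e and best known from endothelial cells, was the only plexin to pass. Plxnd1 was at 2.73, 3.52 and 3.30 in outer interzone and at 5.02, 4.75 and 5.34 in intermediate interzone. The highest outer value was 1.22 below the lowest intermediate value. Plxnd1, measured at chr6:115904829-115904888 on the minus strand, averaged 3.18 ± 0.41 in outer and 5.03 ± 0.30 in intermediate interzone (SD, n = 3 each), with a difference of -1.85 (SE 0.26, 95% interval -2.47 to -1.23, adjusted p = 0.0182). Another Plxnd1 probe gave -2.18, with 2 of 3 outer arrays well above background. Outer replicate 1 set against the intermediate arrays of its slide gave -2.30. The adjusted p was 0.0691 without outer replicate 3, 0.0674 without intermediate replicate 1 and 0.0827 without intermediate replicate 3.

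Plxna2 came closest to the threshold among the guidance genes that did not pass. Plxna2, a receptor for class 3 and class 6 semaphorins, was at 1.40, 1.08 and 0.90 in outer and at 0.28, 0.15 and 0.29 in intermediate interzone. All outer arrays lay above all intermediate arrays, and the difference was 0.89 (SE 0.19, adjusted p = 0.0505, and 0.0414 with the replicate block). A dimmer probe under the same name, which the files place on chromosome 14 and not on chromosome 1, gave 0.51. Plxnb1, the receptor of Sema4d, was at -0.86, -0.70 and -1.28 in outer and at -1.83, -1.73 and -2.64 in intermediate interzone, with separate groups and a difference of 1.12 (SE 0.29, adjusted p = 0.0908, and 0.0318 with the replicate block).

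Plxnb2, the plexin with the brightest probe, was at 4.97, 5.20 and 5.10 in outer and at 4.99, 5.10 and 5.15 in intermediate interzone. Its difference of 0.01 had a 95% interval of -0.37 to 0.39 (adjusted p = 0.972). Plxna1, Plxna3 and Plxna4 had differences of 0.38, 0.05 and -0.19 with adjusted p of 0.350, 0.884 and 0.838. Plxnb3 was well above background on 1 intermediate array, and Plxnc1 on 2 arrays of each group, so neither was tested.

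Of the 2 neuropilins, the co-receptors of class 3 semaphorins, 1 passed. Nrp1, which binds Sema3a and also the growth factor VEGF, was at -2.42, -1.59 and -1.88 in outer interzone and between -0.29 and 0.51 in intermediate interzone. Nrp1 was well above background on 2 of 3 outer arrays, its groups did not overlap, and the difference of -2.03 (SE 0.30, adjusted p = 0.0187) passed. Nrp1 entered the test through the intermediate arrays alone. It did not pass without outer replicate 3 (adjusted p = 0.0712), without intermediate replicate 1 (0.0673) or without intermediate replicate 3 (0.0779). Nrp2, which binds Sema3f and Sema3g, was at 3.53, 4.56 and 3.53 in outer and at 4.24, 5.05 and 4.56 in intermediate interzone, with a difference of -0.75 (adjusted p = 0.276).

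Ephrins were measured for all 8 genes of the family, each on all 6 arrays, and none passed. Efna1, the ephrin with the brightest probe by the mean over the 6 arrays, was at 3.06, 3.34 and 3.31 in outer interzone. In intermediate interzone Efna1 was at 2.80, 3.41 and 3.31, with a difference of 0.06 (95% interval -0.44 to 0.57, adjusted p = 0.893). Efna3 was the only ephrin whose groups did not overlap, at 0.36, 0.05 and 0.51 in outer and between -0.24 and -0.22 in intermediate interzone, with a difference of 0.54 (adjusted p = 0.155). Efnb1, a transmembrane ephrin needed for skeletal patterning, was at 2.36, 3.24 and 3.01 in outer and at 1.59, 2.48 and 2.41 in intermediate interzone. Every outer array of Efnb1 was above the intermediate array of its number, the groups overlapped, and the difference of 0.71 (SE 0.33, adjusted p = 0.275) passed with the replicate block (adjusted p = 0.0417). Efna2, Efna4, Efna5, Efnb2 and Efnb3 had differences of 0.12, 0.26, -0.42, -0.24 and 0.44, with adjusted p from 0.383 to 0.834.

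The probes of Sema4a, Efna1, Efna3 and Efna4 lie within 898 kb of chromosome 3, and all 4 differences were positive. With arrays scaled to the median, the differences of Efna1 and Efna4 were -0.33 and -0.13, so this common sign depends on the scaling.

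Among the 14 Eph receptors, 11 were tested, 1 passed as higher and 1 as lower. Epha4, which binds both classes of ephrin, was at 0.35, 0.35 and -0.19 in outer interzone and at -1.43, -1.10 and -0.94 in intermediate interzone. The lowest outer value was 0.75 above the highest intermediate value. Epha4, measured at chr1:77364339-77364398 on the minus strand, averaged 0.17 ± 0.31 in outer and -1.16 ± 0.25 in intermediate interzone (SD, n = 3 each), with a difference of 1.33 (SE 0.23, 95% interval 0.79 to 1.87, adjusted p = 0.0292). Outer replicate 1 set against the intermediate arrays of its slide gave 1.50. Scaled to the median it was 0.93 (adjusted p = 0.0776), and with normexp and the 75th percentile 0.96 (adjusted p = 0.102). Leaving out any array except outer replicate 2 gave Epha4 an adjusted p between 0.0613, without outer replicate 1, and 0.0993, without intermediate replicate 1.

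Epha3, a receptor of ephrin-A ligands, was at -0.73, -0.23 and -0.64 in outer interzone and at 0.65, 0.86 and 0.34 in intermediate interzone. All outer values were below 0 and all intermediate values above it. Epha3, measured at chr16:63545155-63545214 on the minus strand, averaged -0.53 ± 0.27 in outer and 0.61 ± 0.26 in intermediate interzone (SD, n = 3 each), with a difference of -1.15 (SE 0.22, 95% interval -1.67 to -0.63, adjusted p = 0.0405). The adjusted p of Epha3 was 0.0533 with the slide as a block and 0.0551 within slide 1, where the difference was -1.34. It was 0.0537 with quantile normalization and 0.149 with normexp and the 75th percentile, where the difference was -0.86. Leaving out any array except outer replicate 2 gave Epha3 an adjusted p between 0.0832, without outer replicate 1, and 0.137, without outer replicate 3.

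Ephb3, the Eph receptor with the brightest probe, was at 5.08, 5.11 and 4.98 in outer and at 4.67, 5.13 and 4.87 in intermediate interzone, with overlapping groups and a difference of 0.17 (95% interval -0.26 to 0.59, adjusted p = 0.636). Ephb4, a receptor of ephrin-B2 known from veins, had groups that did not overlap and a difference of 0.60 (adjusted p = 0.180). Its other probe gave -0.03, so the probes differed in sign. Ephb1 had a difference of -1.61 (SE 0.57, adjusted p = 0.172), with 2 of 3 outer arrays well above background. Epha1, Epha2, Epha7, Ephb2 and Ephb6, the last of which lacks kinase activity, had differences of 0.75, -0.53, -0.47, 0.42 and -0.33, with adjusted p from 0.272 to 0.651. Epha6 was above background on 0 arrays, Epha10 on 1 outer array and Epha8 on 2 arrays of each group, so these 3 were not tested.

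Epha5 gave different answers by probe. The brightest of its 3 probes gave 0.12 (adjusted p = 0.735), and the other probes gave -1.11 and -0.71. The probe with -1.11 had an adjusted p of 0.0451 over all tested probes. It was well above background on 2 of 3 outer arrays and passed the filter through the intermediate arrays alone. Of 14 guidance genes with several probes that could be tested, 5 had probes whose differences had opposite signs, and these were Epha5, Epha7, Ephb4, Sema6c and Sema6d. None of these 5 passed with its brightest probe.

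**Figure D3:**
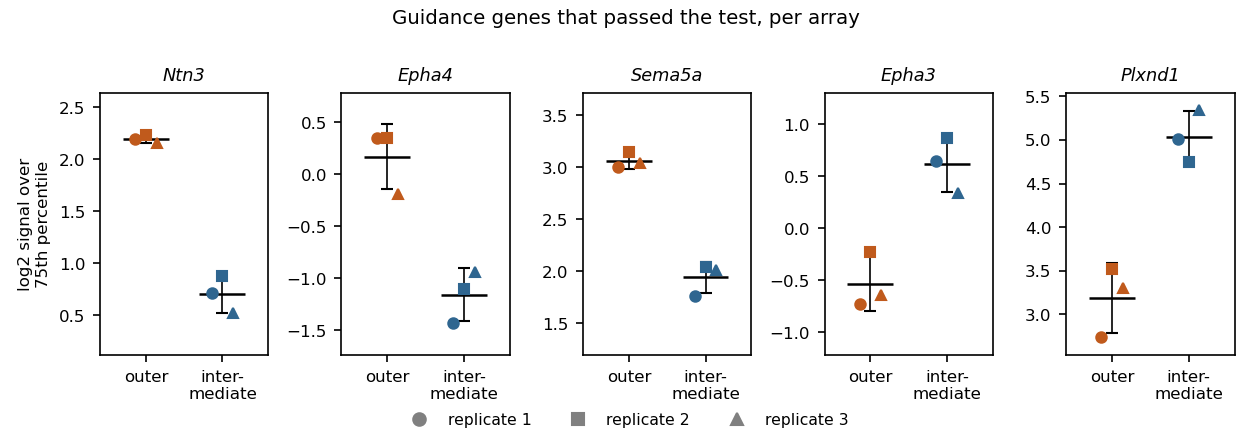
Levels of the 5 guidance genes that passed the test on each array (y axis, log2 signal over the array's 75th percentile, with a range of its own in each panel), outer left of intermediate interzone. Lines are means with SD over 3 arrays and marker shapes are replicate numbers. In all 5 panels the groups do not overlap, and the gap runs from 0.57 for Epha3 to 1.28 for Ntn3.

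The 5 genes that passed differed in how far they depended on the settings. Over 17 other settings, Ntn3 and Plxnd1 each passed in 13, Epha4 and Sema5a in 8 and Epha3 in 7, and no sign changed. Among the 17, scaling to the median and the authors' deposited values gave these genes the same results, so those settings are not separate evidence. None of the 5 passed without the filter on dim probes, without outer replicate 3 or without intermediate replicate 3. The counts over all genes were 0, 90 and 66 there, where limma called 729 with all arrays and the filter. Without the filter 4268 genes had an unadjusted p under 0.05.

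**Figure D4:**
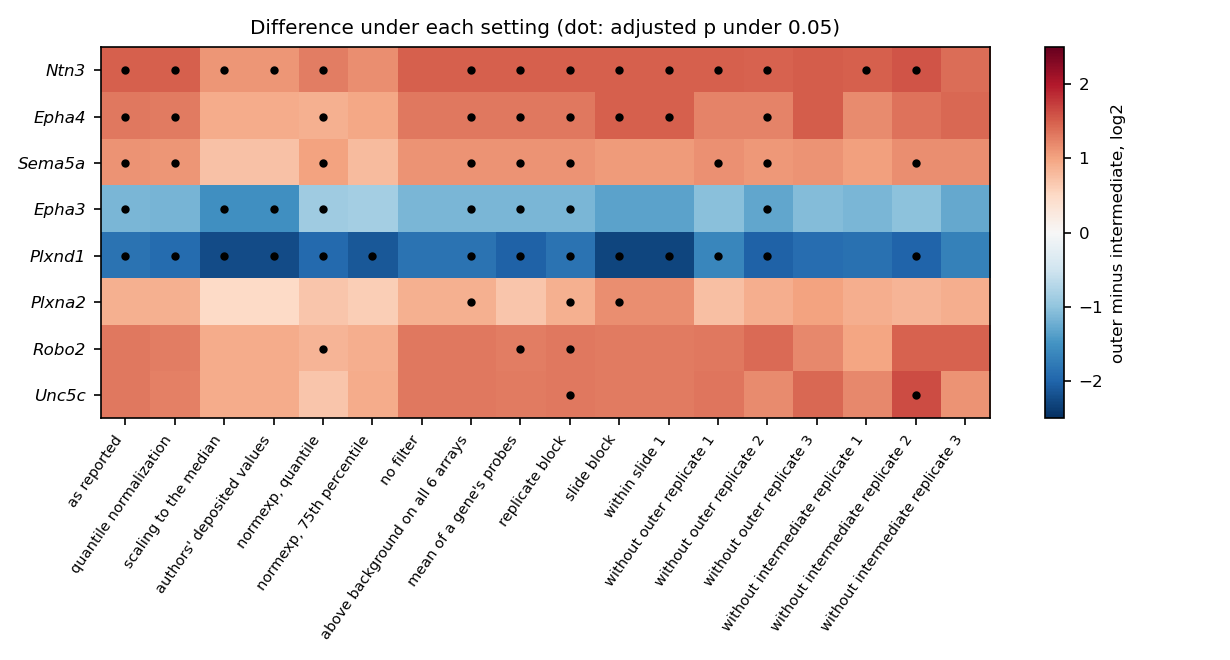
Outer minus intermediate difference in log2 units (colour) for the 5 genes that passed and for the 3 genes next to the threshold (rows), under the reported setting and 17 others (columns), with a dot where the adjusted p was under 0.05. The sign of each row is the same in every column, and the columns without the filter, without outer replicate 3 and without intermediate replicate 3 hold no dot.

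Beyond the 8 families, 87 other genes of the same pathways were listed as co-receptors, modulators and signalling proteins, and 78 were tested. Of these, 1 passed as higher and 5 as lower in the outer interzone, or 7.69% in all where 4.05% of all genes passed, with a median difference of -0.07. With the replicate block 18 passed, 5 higher and 13 lower, or 23.1% where 9.09% of all genes passed. Among 13 tested co-receptors, Nrp1 passed, as given above, and Dcc did so with the replicate block. Among 11 other ligands and modulators, the chemokine Cxcl12 passed, at 2.92, 3.47 and 2.79 in outer and 4.10, 4.29 and 4.73 in intermediate interzone (difference -1.31, adjusted p = 0.0431). Cxcl12 did not pass with the slide as a block (adjusted p = 0.0689) or without any 1 array other than outer replicate 2 (0.0862 to 0.153). Its receptor Cxcr4 had a difference of -1.81 (adjusted p = 0.0767).

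Among 16 genes of ephrin signalling, Sipa1l1, a regulator of Rap GTPases, was higher, at 1.81, 2.20 and 2.13 in outer and 0.76, 1.18 and 1.15 in intermediate interzone (difference 1.01, adjusted p = 0.0439). Sipa1l1 did not pass with arrays scaled to the median (0.62, adjusted p = 0.242), with the mean of its probes (0.106), with the slide as a block (0.126) or without any 1 array other than outer replicate 1 (0.0694 to 0.146). Vav3, an exchange factor for small GTPases, was lower (difference -1.93, adjusted p = 0.0147). Among 16 genes of Slit and netrin signalling, the actin-binding protein gene Ablim1 (difference -2.09, adjusted p = 0.0268) and Srgap3, a GTPase-activating protein that binds Robo receptors (difference -1.05, adjusted p = 0.0487), were lower. Srgap3 did not pass with the slide as a block (adjusted p = 0.115) or without any 1 array other than intermediate replicate 2 (0.0663 to 0.179). Vav3 and Ablim1 were well above background on 2 of 3 outer arrays and entered the test through the intermediate arrays alone. None of 22 genes of semaphorin signalling passed, and 0 is the limma count at adjusted p 0.05. In that list Cfl1, the actin-severing protein cofilin, had the brightest probe, with a difference of -0.21 (adjusted p = 0.532). Without outer replicate 3, and without intermediate replicate 3, none of the 6 other pathway genes passed, and without intermediate replicate 1 only 1 did.

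Markers of cell types in which several of these genes are known to act also differed between the groups. Of 18 endothelial markers, 11 were lower and 1 was higher in the outer interzone, with a median difference of -2.31, and none was below background on all arrays. Their summed level ran from 6.20 to 6.46 in outer and from 7.16 to 7.47 in intermediate interzone. The 2 with positive differences were Erg and Kdr. Erg was higher (0.95, adjusted p = 0.0417) and is also in the list of joint markers. Kdr, the brightest of the list by the mean over the 6 arrays, had a difference of 0.82 (adjusted p = 0.231). Robo4, an endothelial Robo that is in this list and in a pathway list, had a difference of -2.30 (adjusted p = 0.0658). Plxnd1 (-1.85), Nrp1 (-2.03) and Cxcl12 (-1.31) had negative differences, as did Unc5b and Sema3g, which did not pass. The medians of the endothelial, leukocyte, pericyte and smooth muscle, neuron and axon, muscle, erythroid, tendon and joint lists were all negative. Those of the cartilage, Schwann cell and epidermal lists were positive, so a negative sign was not particular to the endothelial list. Nrp1 and Sema3g entered the test through the intermediate arrays alone. Ephb4, known from veins, had the other sign with its brightest probe (0.60) and did not pass, and its other probe gave -0.03. Of the 18 endothelial markers, 13 were measured on all 6 arrays, and the rest passed the filter through the intermediate arrays alone. Of 18 leukocyte markers, 13 were lower, with a median difference of -3.13, but 8 of the 18 were measured on all 6 arrays and the rest likewise passed through the intermediate arrays alone. The leukocyte list had a summed level of 5.91 to 7.05 in outer and 6.92 to 7.61 in intermediate interzone. Of 8 tested pericyte and smooth muscle markers, 2 were lower and 1 higher, with a median of -1.65, and 7 were measured on all 6 arrays. The part of these cell types in the guidance genes' differences was not tested.

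Markers of neurons and Schwann cells were read on the same arrays. Of 18 neuron and axon markers, 12 were tested and 4 were lower in the outer interzone, with a median of -0.82. Differences were negative for 7 of the 12 and positive for 5, the highest being Map2 at 1.67 (adjusted p = 0.124), and 10 were measured on all 6 arrays. The 4 that were lower were Nefl (-2.53, adjusted p = 0.00503), Nefm (-2.50, adjusted p = 0.00818), Gap43 (-2.21, adjusted p = 0.0242) and Prph (-1.89, adjusted p = 0.0461). Nefm was not well above background on all 6 arrays. Its adjusted p was 0.0525 without intermediate replicate 3 and 0.155 with normexp and the 75th percentile. The adjusted p of Gap43 was 0.108 without intermediate replicate 3, 0.0658 without outer replicate 3, 0.0850 without intermediate replicate 1 and 0.0630 without intermediate replicate 2. Of the 18, 5 were above background on no array, among them Elavl3, Isl1, Stmn3 and Syt1, and Tubb3 was above background on 1 intermediate array. The summed level of the list ran from 5.33 to 6.67 in outer and from 5.35 to 6.20 in intermediate interzone, and Snap25 had its brightest probe. Of 12 Schwann cell and glia markers, 3 were tested and none passed, and 3 were above background on no array, among them Erbb3 and Cdh19. The part of nerve fibres in the values of the guidance receptors was not tested.

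**Figure D5:**
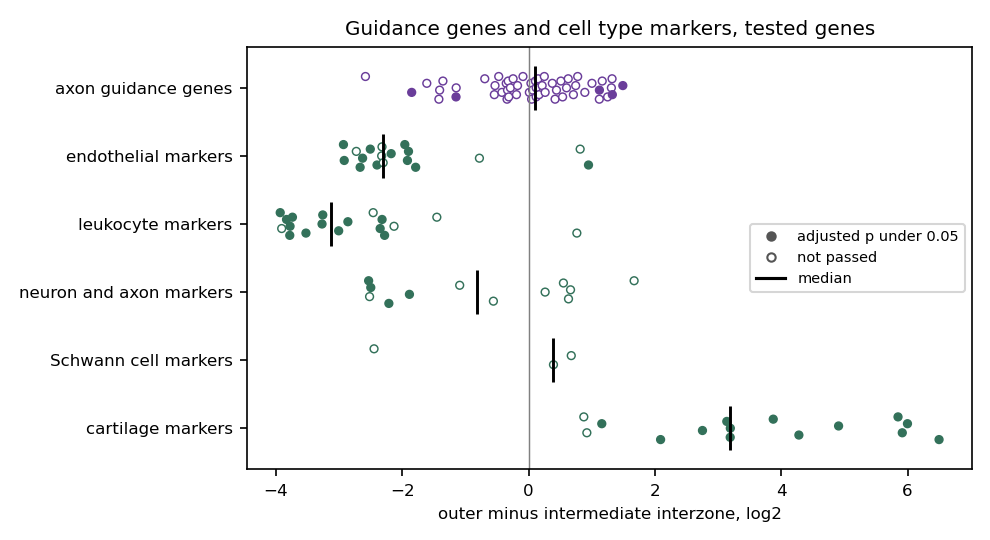
Outer minus intermediate difference in log2 units (x axis) of the tested guidance genes and of the tested markers of 5 cell types (rows), where each point is 1 gene, filled where its adjusted p was under 0.05, and a black line is the median. The guidance genes have a median of 0.11, the endothelial markers of -2.31, the leukocyte markers of -3.13 and the cartilage markers of 3.19.

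Of the remaining lists of markers, 2 of 14 tested joint markers were higher and 1 was lower, Erg and Wnt4 being higher (Wnt4 by 3.41) and Gdf6 lower (-1.77). None of 12 tendon markers, 10 muscle markers, 6 erythroid markers and 6 epidermal markers that could be tested passed. The muscle list had a median of -1.11 and summed levels of 1.14 to 6.19 in outer and 3.67 to 7.07 in intermediate interzone. Of its 10 tested markers, 1 was measured on all 6 arrays, and the others passed the filter through 1 group alone. The erythroid list had a median of -1.78 and summed levels of 6.49 to 10.54 in outer and 9.63 to 11.16 in intermediate interzone. In both lists the outer replicate 1 array was the lowest.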

How the data were processed

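Total RNA was labelled with Cy3 and hybridised to 1-colour arrays, and per the file headers the scans were read with version 10.7.3.1 of Agilent Feature Extraction. Partek 6.11.0321 is named too, per the submitters' processing notes. The deposited scanner files hold 1 processed intensity for each spot, from which the software had subtracted background, and flags, per the file headers. The authors' table of the series holds the same intensity divided by 1 constant per array, with each column's median at 1. Its scale is linear, no gene was centred, and nothing says in which direction the authors compared the groups. Its 6 columns of flags were not used.

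The log2 of the deposited processed signal minus the array's 75th percentile was computed for 55681 probes, after spots of 1 probe were averaged and flagged spots left out. A probe was kept when each array of the outer or of the intermediate group had it well above background, which left 23884, and each gene was read from its brightest kept probe. A RefSeq table of build GRCm38.p6 held the accession of 26762 probes, out of 28390 that have one, and 2878 symbols changed. Probe positions are those of the files in build mm9, and their place in exons or UTRs was not analysed here. The groups were compared by a two-sided test with lmFit and eBayes of limma 3.58.1 (R 4.3.3), and p-values were adjusted by Benjamini-Hochberg over 18003 genes, after the procedure was tested on simulated data. The 3 arrays per group limit the precision.

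The genes, lists and named genes were chosen with earlier results of these data known. Named with every array were the genes that passed and the brightest gene of each family, and other genes by their difference, and genes near the threshold were shown per array after their values were seen. Same-numbered samples, numbered in the labels, correlated at 0.563, 0.480 and 0.372 after removal of group means. The highest correlation between different numbers was 0.114. Removal of means of 3 arrays lowers the correlations between different numbers where same-numbered ones are positive, so this contrast is partly built in. Replicate 1 was the dimmest array of each group, and its part in the correlations was not tested. The labels do not say that a number marks 1 embryo in both groups, so the main comparison was unpaired. Slide 1 held outer replicate 1 and the 3 intermediate arrays, and slide 2 the other 2 outer arrays, so slide values rest on outer replicate 1, the dimmest array. The alternatives were other normalizations and filters, the mean of a gene's probes, the authors' deposited intensity, replicate and slide blocks, and leaving out each array.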

Additional observations from a re-analysis of the deposited data

How the results depend on the processing

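Limits: the 3 arrays per group, the dim outer replicate 1 array and the filter on dim probes set which genes could pass, and the causes of the changes below were not tested. No gene that passed changed sign. Of 1143 pairs of a named gene and a setting, 1015 kept their side of the threshold and direction or stayed below it, 91 lost and 37 gained a pass. Of the 1015, 77 changed sign while passing in neither setting. Counts below are genes called, as all (higher and lower in outer), against 729 (282 and 447) of all genes, 5 (3 and 2) guidance genes and 6 (1 and 5) other pathway genes as reported. Quantile normalization gave 451 (175 and 276) genes, 4 (3 and 1) guidance genes and 4 (1 and 3) other pathway genes. Scaling to the median, and the authors' deposited values, each gave 1095 (158 and 937) genes, 4 (1 and 3) guidance genes and 14 (0 and 14) other pathway genes, with median differences of -0.28 for guidance genes and -0.29 for all genes. Normexp with quantile normalization gave 920 (328 and 592) genes, 6 (4 and 2) guidance genes and 11 (2 and 9) other pathway genes. Normexp with the 75th percentile gave 284 (103 and 181) genes, 1 (0 and 1) guidance gene and 2 (0 and 2) other pathway genes. No filter gave 0 (0 and 0) genes, guidance genes and other pathway genes in limma, with 4268 genes, 17 guidance genes and 22 other pathway genes at an unadjusted p under 0.05, and a median difference of 0.44 for all genes. The filter on all 6 arrays, with fewer genes tested, gave 460 (247 and 213) genes, 6 (4 and 2) guidance genes and 7 (2 and 5) other pathway genes. The mean of a gene's probes gave 798 (304 and 494) genes, 7 (5 and 2) guidance genes and 7 (0 and 7) other pathway genes. The replicate block gave 1636 (836 and 800) genes, 18 (11 and 7) guidance genes and 18 (5 and 13) other pathway genes, and it ended no call of a guidance gene. The slide block gave 1215 (481 and 734) genes and 8 (4 and 4) guidance genes, and slide 1 alone 1314 (518 and 796) genes and 9 (3 and 6) guidance genes, where 6.75% and 7.3% of all genes passed. Leaving out each array in turn gave 66 to 1111 genes, 46 to 489 as higher and 20 to 622 as lower, 0 to 8 guidance genes, 0 to 4 as higher and 0 to 4 as lower, and 0 to 11 other pathway genes, 0 to 1 as higher and 0 to 10 as lower. The lowest of these counts came without outer replicate 3 or intermediate replicate 3 and the highest without outer replicate 2. The median difference of the guidance genes ran from -0.02 to 0.23.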
